A study of Mus musculus with 2 samples.

Results

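Tumor nuclei that also carried endothelial transcripts were examined in single-nucleus RNA sequencing of tumors of the dFLEx CDS mouse, a model of CIC::DUX4 sarcoma. Members were chosen by measured values, nucleus by nucleus, as levels per 10000 UMIs (UMIs are unique molecular tags, each counted as an RNA molecule). A tumor sum, T, was the summed level of Etv1, Etv4, Etv5, Shc3 and Shc4, and an endothelial sum, E, was that of Pecam1, Cdh5, Kdr, Flt1, Tek, Tie1, Emcn, Ptprb, Erg and Egfl7. A nucleus was a member when it had at least 1000 UMIs, under 5% mitochondrial UMIs, T of at least 80, E of at least 20, at least 3 of the 10 endothelial genes detected, and T at least 2 times E. There were 4217 members among 60121 nuclei that passed the depth and mitochondrial filters, of 72338 deposited, and they made up 7.01% of the passing nuclei and 10.96% of the 38492 with T of at least 80. Of the members, 3080 came from untreated tumors and 1137 from Minnelide-treated tumors, and untreated tumor 1 by itself held 61.2% of them.

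The series had an untreated group of 4 tumors (genotype dFLEx CDS +/-, no treatment) and a group of 4 tumors given Minnelide at 0.42 mg/kg for 21 days, whose genotype entry was blank. Minnelide releases triptolide, a compound that acts on transcription by RNA polymerase II. In every mouse of both groups the CIC::DUX4 allele was switched on by plasmids for Cre and FLPE, driven by the ubiquitous CAG promoter and electroporated into hind limb muscle, so no cell-specific promoter limited which cells recombined. Neither ages nor animal numbers are in the labels, and tumors are named here by file order, which pairs none of them.

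CIC is a transcriptional repressor of the PEA3 ETS factor genes Etv1, Etv4 and Etv5, and the CIC::DUX4 fusion activates those genes in place of repressing them. Endothelial cells line blood vessels and are recognised by junction proteins such as PECAM1 and VE-cadherin (Cdh5), by the VEGF receptors (Kdr, Flt1), by the angiopoietin receptor TEK and its partner TIE1, and by ERG, another ETS factor. A nucleus with high levels of both sets therefore holds transcripts that are usually found in different cells.

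The deposited matrices held between 5210 and 12615 nuclei and between 18487409 and 73211599 UMIs per tumor, and nuclei of untreated tumor 4 were the shallowest, at a median of 883 UMIs where the other medians ran from 2329 to 4031. Each tumor shared between 49 and 132 barcodes with 1 tumor of the other group, and 55 members carried such a barcode. Runs were not given, so run and treatment cannot be told apart. Scrublet, which scores nuclei by their likeness to simulated pairs, placed 428 members among the highest scores of their tumor. The share of nuclei flagged in a tumor was preset, at 0.8% for every 1000 nuclei deposited, so it differed between tumors by design. The count of 428 is therefore not a count of doublets. With the high scores removed the comparison of members with other tumor nuclei gave 1606 called genes, with the shared barcodes removed 1782 and with neither removed 1770. The signs of the differences in member share and in gene number, and their side of the threshold, stayed as they were under both.

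Members were a small minority of the tumor nuclei in 7 tumors and the majority in untreated tumor 1. In untreated tumor 1, 2580 members made up 75.4% of the nuclei with T of at least 80 (exact 95% binomial interval, 73.9 to 76.8, which covers counting error alone, as do all such intervals here). The share was 4.53% (3.87 to 5.26) with 162 members in untreated tumor 2, 4.95% (4.26 to 5.71) with 177 in untreated tumor 3 and 4.65% (3.97 to 5.41) with 161 in untreated tumor 4. With Minnelide it was 5.36% (4.91 to 5.82, 515 members) in tumor 1, 3.50% (2.84 to 4.25, 97 members) in tumor 2, 3.54% (3.15 to 3.96, 296 members) in tumor 3 and 6.19% (5.44 to 7.02, 229 members) in tumor 4. Untreated tumor 1 lay far above the others, whose groups overlapped.

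The whole distribution of E was displaced in untreated tumor 1, not only its upper end. Over the nuclei with T of at least 80, the median E was 37.5 per 10000 UMIs in untreated tumor 1, where the 10th percentile was 21.7 and the 90th 62.1. In the other 7 tumors the median was between 3.83 and 6.92 and the 90th percentile between 13.4 and 18.9. The median of untreated tumor 1 was thus above the 90th percentile of every other tumor.

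**Figure D1:**
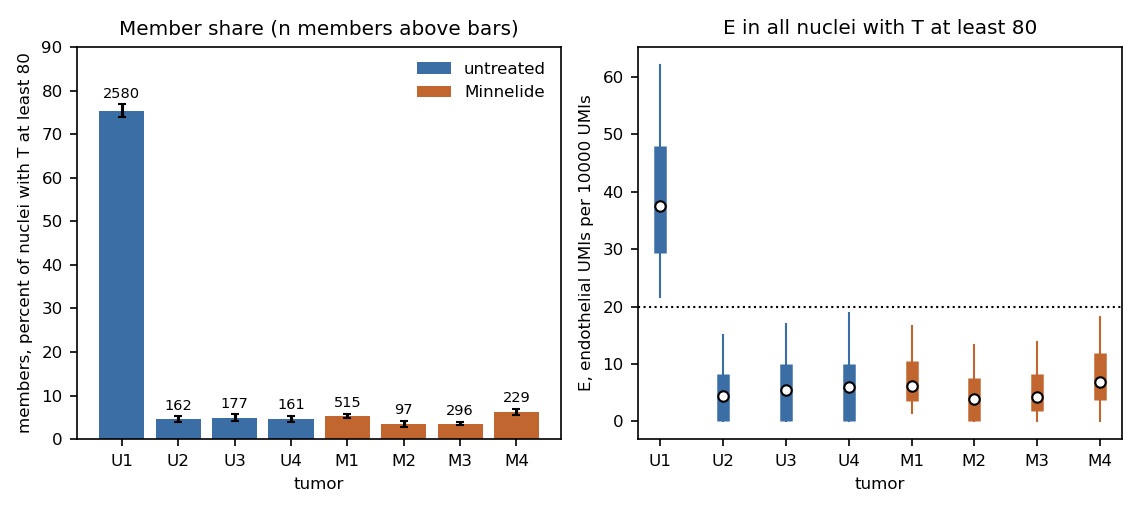
Share of members among nuclei with T of at least 80 (left, percent, bars with exact 95% binomial intervals) and distribution of the endothelial sum E over the same nuclei (right, per 10000 UMIs, with the median and the 25th to 75th and 10th to 90th percentiles), by tumor. Untreated tumor 1 stands at 75.4% and a median E of 37.5, and the other 7 tumors between 3.50% and 6.19% with medians between 3.83 and 6.92; the dotted line marks the threshold of 20.

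The mean share was 22.4% ± 35.3 (SD, n = 4) in untreated tumors and 4.65% ± 1.35 (SD, n = 4) with Minnelide, a difference of -17.7 percentage points (two-sided exact permutation test, p = 0.514). Without untreated tumor 1 the untreated mean was 4.71% ± 0.217 (SD, n = 3) and the difference -0.06 percentage points (exact permutation p = 1). The difference between the groups was therefore smaller than the spread among untreated tumors, and 1 library decided its size.

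Depth moved these shares but not the position of untreated tumor 1. Its members had a median of 6214 UMIs, against 1540 to 3596 in the other tumors. With every nucleus thinned to 1000 UMIs, members were 40.2% of its tumor nuclei and 1.75% to 3.90% elsewhere, and with E of at least 40 they were 27.8% and 0.383% to 1.13%. At the edge of the rule, 343 members had E under 22 while 688 tumor nuclei had E from 18 to 20, and 368 members had T under 88 while 269 nuclei that met the rest of the rule had T from 72 to 80. Another 341 nuclei reached E of 20 with fewer than 3 genes.

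Free RNA can give endothelial UMIs to nuclei of every type. The endothelial part of the rule (E of at least 20 and at least 3 genes) was therefore also counted in nuclei with T under 80 and other markers. It was counted in those with macrophage or fibroblast markers, or strong muscle markers (at least 800 per 10000 UMIs, a cut set after values were seen). In untreated tumor 1 it was met by 20 of 197 macrophage or fibroblast nuclei (10.2%, interval 6.31 to 15.2, median 5203 UMIs) and by 189 of 671 muscle nuclei (28.2%, 24.8 to 31.7, median 2998 UMIs), against 89.6% of its tumor nuclei. The median E was 8.38 in the former and 13.3 in the latter. With the looser cut for muscle markers (at least 50 per 10000 UMIs and at least 2 times each other marker set), 2255 of 4657 nuclei met it (48.4%, 47.0 to 49.9). None of these sets left out endothelial nuclei (E at least 2 times T), in which muscle genes summed to 205 per 10000 UMIs in untreated tumor 1. The part of endothelial nuclei in these counts was not tested. Tumor nuclei of untreated tumor 1 lay above these backgrounds, which were themselves raised there.

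In the other 7 tumors together, 15 of 459 macrophage or fibroblast nuclei (3.27%, 1.84 to 5.33) and 9 of 1300 muscle nuclei (0.692%, 0.317 to 1.31) met that part, against 5.32% (5.09 to 5.56) of the tumor nuclei. The first of these intervals overlaps that of the tumor nuclei. By the looser cut for muscle markers the share ran from 5.82% to 14.3% in those tumors, so it was above the pooled share of the tumor nuclei in each. Endothelial nuclei were not left out of that set either. The part of free RNA in the member shares was not tested.

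The genes of both sums, which chose the members, are given as a description. Etv1 had at least 1 UMI in 99.4% to 100% of members in every tumor and Shc3 in 92.5% to 98.7%. Pecam1 had one in 96.5% of members of untreated tumor 1 and 67.2% to 83.9% elsewhere, Cdh5 in 87.9% and 37.1% to 71.6%, Erg in 78.8% and 17.4% to 43.3%, and Tek in 52.3% and 18.01% to 35.9%. In other tumor nuclei, those with T of at least 80 and at least 2 times E that were not members, Erg had a UMI in 24.6% and 3.33% to 12.1%. The tumor markers were thus near universal among members, whereas single endothelial markers were often undetected outside untreated tumor 1. Etv1 (Ensembl ENSMUSG00000004151; GRCm39 chromosome 12, 38828851 to 38920483) had a level in members of 53.1 per 10000 UMIs in untreated tumor 1, 42.1, 35.8 and 36.8 in untreated tumors 2 to 4, and 50.6, 35.1, 44.3 and 42.6 in Minnelide tumors 1 to 4. Etv4, the other highly counted PEA3 factor, was at 36.0, 29.8, 22.03, 38.5, 25.1, 18.7, 19.7 and 20.2 in the same order. Untreated tumor 1 was at or near the top for both. Shc3, which encodes an adaptor of receptor tyrosine kinases, was at 9.29 there and between 18.3 and 20.9 elsewhere. Its relative Shc4 was at 8.51 against 14.2 to 18.9. Both adaptor genes thus had their lowest member levels in the tumor with the highest Etv1 level.

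Members carried the endothelial genes of the rule at different proportions in untreated tumor 1 than elsewhere. Pecam1, a junction adhesion protein (chromosome 11, 106543689 to 106641454), was at 8.80 per 10000 UMIs in members of untreated tumor 1, at 5.95, 4.18 and 6.76 in untreated tumors 2 to 4 and at 5.16, 3.56, 4.50 and 3.42 in Minnelide tumors 1 to 4. Erg, the ETS factor of endothelial identity (chromosome 16, 95160028 to 95387452), was at 3.43, 2.08, 1.73, 1.20, 1.65, 1.74, 1.30 and 1.11 in the same order. Egfl7, a secreted endothelial protein (chromosome 2, 26468286 to 26486789), was at 8.18, 3.57, 2.17, 2.25, 2.98, 1.68, 2.48 and 2.87. Untreated tumor 1 was highest for all of these genes.

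Ptprb, the vascular endothelial phosphatase that acts on TEK and VE-cadherin (chromosome 10, 116111428 to 116225440), went the other way. Its level in members was 0.61 in untreated tumor 1, 2.42, 3.02 and 3.06 in untreated tumors 2 to 4 and 3.08, 4.75, 2.94 and 2.92 in Minnelide tumors 1 to 4. Flt1, a VEGF receptor, was likewise lowest in untreated tumor 1 at 3.71, against 5.35 to 10.8 elsewhere. Of the remaining genes, Cdh5 was at 4.16 against 1.68 to 3.83, Emcn, an endothelial mucin, at 3.96 against 1.95 to 3.93, and Tie1 at 1.23 against 0.34 to 1.01. Kdr (1.75 against 0.79 to 2.11) and Tek (1.06 against 0.94 to 1.77) lay within the range of the other tumors.

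Endothelial nuclei of the same tumor, taken as the mirror class (E of at least 20, at least 3 genes, E at least 2 times T; 2710 nuclei in all), did not share that lack of Ptprb. They held Ptprb at 12.2 per 10000 UMIs in untreated tumor 1 and between 8.88 and 15.3 elsewhere. As a share of the summed endothelial UMIs, Ptprb gave 1.65% in members and 15.3% in endothelial nuclei of untreated tumor 1. In each of the other 7 tumors it gave between 8.13% and 17.2% in members and between 9.81% and 18.1% in endothelial nuclei. In the background nuclei of untreated tumor 1 it gave 4.32% (macrophage and fibroblast, 45 Ptprb UMIs) and 6.94% (muscle, 254 Ptprb UMIs). For Erg the order was turned, with 9.29% in members, 4.63% in endothelial nuclei, and 4.23% and 3.99% in the background nuclei (44 and 146 Erg UMIs). Endothelial nuclei were not left out of the background sets, and their part in these shares was not tested. The part of free RNA in the shares of members was not tested either.

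**Figure D2:**
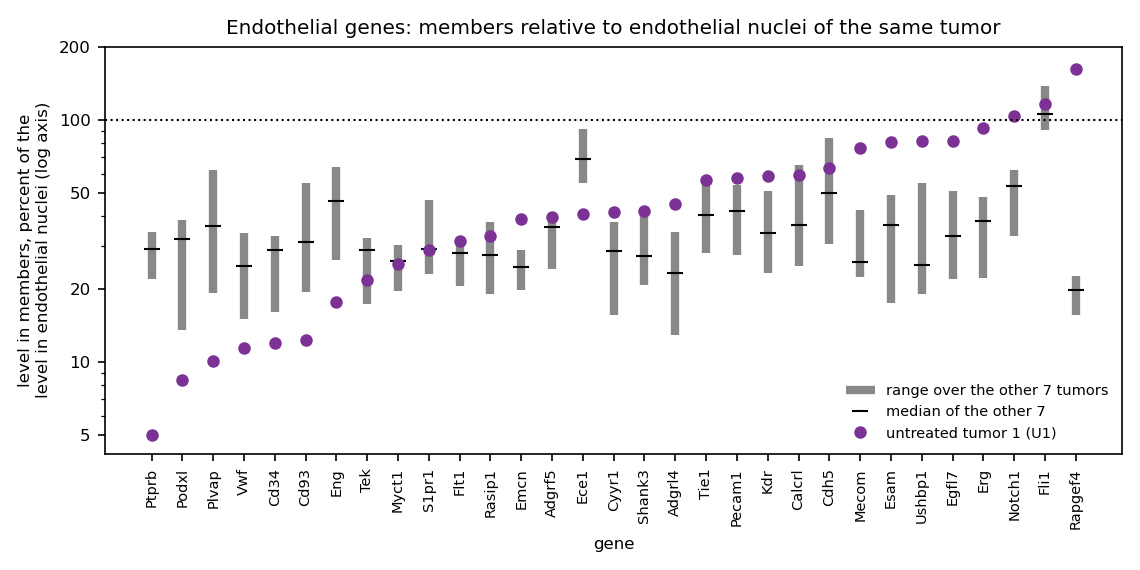
Level in members as a percent of the level in endothelial nuclei of the same tumor (log axis), for each endothelial gene with enough UMIs. Dots are untreated tumor 1, and bars with a tick give the range and median of the other 7 tumors; the dots run from 4.98% (Ptprb) to 163% (Rapgef4), a wider spread than in the other tumors.

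The same unevenness was seen over a larger list of endothelial genes. For each gene with a level of at least 1 per 10000 UMIs in endothelial nuclei, the level in members was expressed as a percent of that in endothelial nuclei of the same tumor. In untreated tumor 1 this ran from 4.98% for Ptprb to 163% for Rapgef4, a guanine nucleotide exchange factor for RAP GTPases, with an SD of 1.21 on the log2 scale over 38 genes. In the other 7 tumors the SD was between 0.511 and 0.723. These are descriptions of classes cut on the same nuclei, with no test.

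Genes at the low end in untreated tumor 1 included the arterial transcription factor Sox17 (5.78%), the sialomucin Podxl (8.39%), the fenestral diaphragm gene Plvap (10.1%), von Willebrand factor Vwf (11.4%), Cd34 (11.95%) and Cd93 (12.3%). Genes at the high end included Erg (92.8%), Egfl7 (82.1%), Ushbp1 (81.6%), the junction gene Esam (80.9%) and the transcription factor Mecom (76.3%). Fli1, an ETS factor of both endothelial and mesenchymal cells, lay between 91.1% and 138% in every tumor. Over the 28 genes measured in all tumors, the Spearman correlation of these percentages was between 0.131 and 0.534 (median 0.262) in the 7 pairs of tumors with untreated tumor 1 and between 0.341 and 0.768 (median 0.574) in the 21 pairs without it. Genes are not independent replicates, and the points of a pair share the 2 libraries.

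A list of 37 further endothelial genes that the rule did not use was summed next. It gave 60.3 per 10000 UMIs in members of untreated tumor 1, 51.9, 45.8 and 41.9 in untreated tumors 2 to 4 and 49.1, 46.8, 45.4 and 42.1 in Minnelide tumors 1 to 4. In other tumor nuclei it gave 42.6 in untreated tumor 1 and 19.6 to 26.5 elsewhere, and in endothelial nuclei 116 and 111 to 129. Members were above other tumor nuclei and below endothelial nuclei in 8 of 8 tumors.

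**Figure D3:**
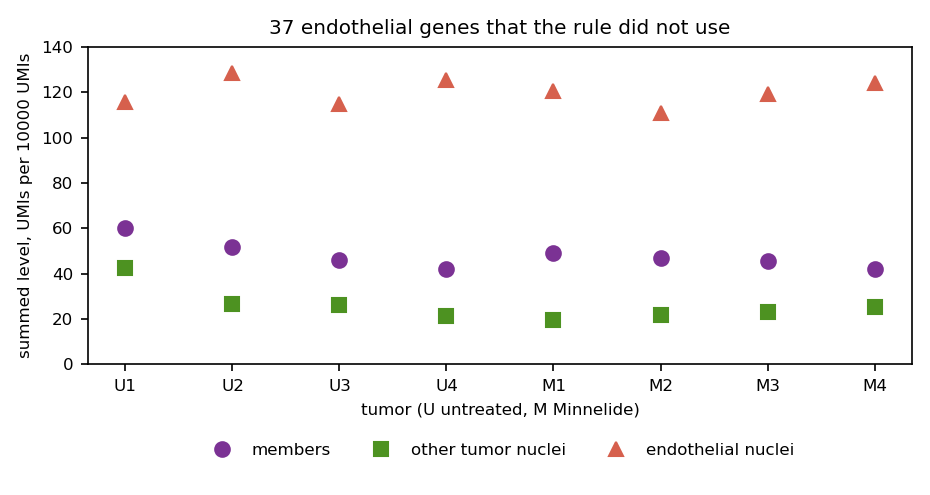
Summed level of 37 endothelial genes outside the rule (per 10000 UMIs), 1 point per tumor for members, other tumor nuclei and endothelial nuclei. Members lie between 41.9 and 60.3, above other tumor nuclei of the same tumor and below its endothelial nuclei in every tumor.

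Members were compared with other tumor nuclei by summing the counts of each class per tumor and fitting all genes with edgeR's quasi-likelihood test, with tumor as a block. The classes were cut on E in the same nuclei, so the calls describe which genes accompany the endothelial genes of the rule and are not independent evidence of a separate cell state. In summed counts, more nuclei with a transcript and more RNA per nucleus cannot be told apart. At a Benjamini-Hochberg adjusted p under 0.05, 1087 of 11756 genes were higher in members (9.25%) and 683 were lower (5.81%), and 1010 of these 1770 moved the same way in all 8 tumors. Without untreated tumor 1 the count was 2270 of 11698 genes (1282 higher and 988 lower). With nuclei thinned to 1000 UMIs it was 504 of 9751 (262 higher and 242 lower).

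The 10 genes with the smallest p among those higher in every tumor changed by log2 0.82 to 3.28. Arhgap26, a GTPase-activating protein, was at 6.23 per 10000 UMIs in members of untreated tumor 1, 3.15, 2.99 and 3.19 in untreated tumors 2 to 4 and 2.54, 3.11, 2.90 and 2.13 in Minnelide tumors 1 to 4. The corresponding values in other tumor nuclei were 2.79, 1.03, 1.18, 1.28, 0.909, 1.60, 1.09 and 1.01, which gave a log2 fold change of 1.26 ± 0.08 (SE; edgeR adjusted p = 5.6e-07). Every member value exceeded that of the same tumor's other tumor nuclei.

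Larger fold changes were seen for Dipk2b (log2 3.28 ± 0.22, SE, as for the folds that follow), Ushbp1 (2.55 ± 0.18), the RAP exchange factor Rapgef5 (2.27 ± 0.15), the scaffold Shank3 (2.26 ± 0.14), the actin adaptor Afap1l1 (2.19 ± 0.15) and the LIM-domain cofactor Ldb2 (2.01 ± 0.15). Apbb2 (1.18 ± 0.08), the phosphatase subunit Ppp2r5a (1.00 ± 0.07) and Ica1 (0.82 ± 0.06) completed the 10. Ldb2 was at 17.4 in members of untreated tumor 1 and between 3.87 and 8.27 elsewhere, against 7.32 and 0.812 to 2.33 in other tumor nuclei.

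The genes lower in members with the smallest p changed less. The nuclear receptor gene Rora was at 27.2 per 10000 UMIs in members of untreated tumor 1, 60.1, 57.6 and 63.9 in untreated tumors 2 to 4 and 50.04, 64.0, 53.0 and 54.2 in Minnelide tumors 1 to 4, with a log2 fold change of -0.40 ± 0.05 (SE; edgeR adjusted p = 8.6e-05). The glycosyltransferase B3galt1 (-0.57 ± 0.07), the adhesion genes Mdga2 (-0.42 ± 0.05) and Clstn2 (-0.56 ± 0.07), the kinase Prkcb (-0.43 ± 0.06), Sema5b (-0.58 ± 0.08), Auts2 (-0.40 ± 0.06), the splicing factor Rbfox1 (-0.51 ± 0.07) and the phosphatase Ptprt (-0.78 ± 0.11) were also among them. Several of these are known from neurons.

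Of the 37 further endothelial genes, 36 passed the filter on low counts, and 32 were higher in members and 0 lower, with a median log2 fold change of 1.39 against -0.03 over all genes tested. With nuclei thinned to 1000 UMIs, 16 of the 32 tested were higher and 0 lower (median 0.75). Mecom, a zinc finger factor of hematopoietic and endothelial cells (chromosome 3, 30005439 to 30602157), was at 13.8 in members of untreated tumor 1, 10.4, 6.29 and 8.53 in untreated tumors 2 to 4 and 9.21, 12.5, 5.48 and 4.35 in Minnelide tumors 1 to 4, with a log2 fold change of 2.66 ± 0.21 (SE; edgeR adjusted p = 3.1e-06). Sox17 (2.40 ± 0.25), Vwf (2.26 ± 0.24), Podxl (1.48 ± 0.23), Cd34 (1.38 ± 0.24), Esam (1.27 ± 0.17) and Notch1 (0.55 ± 0.10) were also higher. Fli1 was not called (log2 -0.04 ± 0.05, edgeR adjusted p = 0.691).

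Genes of subtypes of vessel were mixed among the calls, where 9.25% of all genes tested were higher and 5.81% lower. Of 12 arterial genes tested 6 were higher and 0 lower, of 8 venous genes 5 and 0, and of 8 capillary genes 5 and 1 (Tcf15). Of 14 genes of angiogenic tip cells 10 were higher and 0 lower, including Esm1 (log2 1.40 ± 0.22), the basement membrane collagen Col4a1 (1.37 ± 0.20), the peptide ligand Apln (1.28 ± 0.17) and Angpt2 (1.23 ± 0.22), the antagonistic ligand of TEK. Of 10 VEGF and angiopoietin ligands and receptors outside the rule, Nrp2, Angpt2, Vegfc and Pgf were higher and 0 lower. The median log2 fold change of the tip-cell list was 1.20. Thinned to 1000 UMIs per nucleus, 4 of 10 tip-cell, 2 of 8 arterial, 2 of 7 venous and 3 of 8 capillary genes were higher, as were 2 of 8 ligands and receptors. Without untreated tumor 1, 14 of 14 tip-cell and 9 of 12 arterial genes were higher. Over all genes, 262 of 9751 were higher with thinning and 1282 of 11698 without untreated tumor 1, so counts of different settings are not comparable directly.

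Other ETS factors, interferon-responsive genes and genes of the tumor program were counted as well. Over all genes of the same fit, 9.25% were higher and 5.81% lower. Of 12 ETS genes tested 4 were higher and 0 lower: Elk3 (log2 0.80 ± 0.08), Ets2 (1.502 ± 0.181), Elk4 and Elf1. Etv2, the factor that sets up the endothelial lineage in the embryo, did not pass the filter and was at or near 0. Of 13 interferon-responsive genes 10 were higher and 0 lower, including Irf1 (0.59 ± 0.13), with a median of 0.82. Thinned to 1000 UMIs per nucleus, 0 of the 8 tested were called (median 0.26), and 2 of 12 ETS genes were.

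Among 10 further genes linked to CIC::DUX4, 0 were higher and 4 lower in members: Spred2, an inhibitor of RAS signaling (log2 -0.30 ± 0.06), Ccnd2, cyclin D2 (-0.31 ± 0.06), the ERK phosphatase gene Dusp4 (-0.30 ± 0.08) and Pole, a DNA polymerase subunit (-0.40 ± 0.11). Of 27 cell cycle genes 0 were higher and 5 lower (Knl1, Prim1, Top2a, Kif11 and Pola1), with a median of -0.28. Thinned to 1000 UMIs per nucleus, 0 of the 27 were called (median -0.25), and 3 of the 10 genes linked to CIC::DUX4 were lower. Of 6 ERK feedback genes, Dusp5 was higher and Spred3 lower. The shares over all genes were 9.25% higher and 5.81% lower, and with thinning 262 and 242 of 9751 genes.

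Markers of other cells were counted in the same fit, in which 9.25% of all genes were higher and 5.81% lower. Of 10 macrophage genes 0 were higher and 0 lower, of 12 muscle genes 0 and 3 (Atp2a1, Trdn and Mybpc1), and of 9 pericyte genes 2 (Kcnj8 and Abcc9) and 1. Of 10 fibroblast genes and of 14 mesenchymal genes 1 was higher and 1 lower in each. Without untreated tumor 1, 4 of 14 mesenchymal genes were higher (Fn1, Col1a1, Col1a2 and Zeb1) and 2 lower. Of all 11698 genes in that fit, 1282 were higher and 988 lower. Of 3 T and NK genes Cd247 was higher, and the 1 blood gene tested was not called. Kcnj8 and Abcc9 encode the channel subunits of pericytes, the cells that wrap the endothelium. Kcnj8 was not called with high Scrublet scores removed, and with thinning 0 pericyte genes were higher and 0 muscle genes were called.

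Members also held more genes at equal depth, although a rule that asks for at least 3 endothelial genes selects in part on the number of genes. With each nucleus thinned to 1000 UMIs, the median number of genes was 823 in members and 790 in other tumor nuclei of untreated tumor 1, 772 against 757, 773 against 757 and 781 against 765 in untreated tumors 2 to 4, and 788 against 767, 776 against 753, 779.5 against 752 and 768 against 737 in Minnelide tumors 1 to 4. The mean difference was 22.8 genes ± 7.07 (SD, n = 8), positive in 8 of 8 tumors (exact sign-flip permutation test, p = 0.00781, the smallest that 256 sign assignments allow). The 2 counts added after the data were seen left genes out: without the 15 genes of the rule the difference was 21.4 ± 6.87, and without these and the further endothelial genes 19.4 ± 6.84, positive in 8 of 8 tumors in both (exact permutation p = 0.00781). Between 8.45% and 15.8% of members, 4.06% to 15.4% of other tumor nuclei and 0% to 9.22% of endothelial nuclei per tumor were among the highest Scrublet scores. The share was higher in members than in other tumor nuclei in untreated tumors 2 (12.96% against 4.06%) and 3 and Minnelide tumors 1, 2 and 4. It was lower in untreated tumors 1 and 4 (13.7% against 15.4%) and Minnelide tumor 3. The share flagged over all nuclei of a tumor was preset by its number of nuclei, so the ranges across tumors follow that in part. The median score was higher in members than in other tumor nuclei of every tumor. Whether nuclei captured together contribute to the members was not tested.

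Against endothelial nuclei, 2000 of 8982 genes were higher in members (22.3%) and 1967 were lower (21.9%) by the same edgeR fit, and 2477 of these moved the same way in all 8 tumors. The 10 genes higher with the smallest p were Ano4 (log2 2.80 ± 0.11), Tenm2 (2.96 ± 0.12), Asic2 (3.29 ± 0.13), Ptpn5 (2.50 ± 0.11), Rgs7 (2.89 ± 0.13), Unc5c (2.48 ± 0.11), Esrrg (3.06 ± 0.14), Alk (3.28 ± 0.15), Igf2bp3 (2.61 ± 0.12) and Spsb4 (3.42 ± 0.16), all with edgeR adjusted p at or under 1.7e-08. Alk encodes a receptor tyrosine kinase, and its member level was 6.64 per 10000 UMIs in untreated tumor 1 and 10.8 to 18.2 elsewhere, against 0.437 and 1.14 to 2.30 in endothelial nuclei. In other tumor nuclei it was between 12.2 and 26.8.

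The genes lower than in endothelial nuclei with the smallest p were the ubiquitin ligase Hecw2 (log2 -2.30 ± 0.10), the potassium channel Kcnq1 (-2.24 ± 0.11), the splicing factor Nova2 (-1.94 ± 0.10), Inhbb (-2.20 ± 0.11), Adarb1 (-1.99 ± 0.10), Thsd1 (-2.25 ± 0.12), the integrin Itga2 (-2.54 ± 0.14), the collagen Col4a2 (-1.88 ± 0.11), Myct1 (-1.95 ± 0.11) and Rbpms (-1.75 ± 0.10), with edgeR adjusted p at or under 4.0e-08. Itga2 was at 0.144 in members of untreated tumor 1 and 0.396 to 1.25 elsewhere, against 0.900 and 2.36 to 4.78 in endothelial nuclei.

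Of 35 further endothelial genes tested against endothelial nuclei, 0 were higher and 33 lower in members, with a median log2 fold change of -1.61 against 0.03 over all genes. Of 9 further genes linked to CIC::DUX4, 7 were higher and 0 lower (median 1.02), and of 24 cell cycle genes 17 and 0 (median 0.62). Without untreated tumor 1, 7 of 14 mesenchymal genes were higher than in endothelial nuclei and 2 lower, against 2 and 3 of 14 with it. Of 8 fibroblast genes, 4 were higher and 1 lower without that tumor, against 1 and 1 with it. Over all genes, 2085 of 8867 were higher and 2222 lower without that tumor, against 22.3% and 21.9% with it.

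Members of untreated tumor 1 also differed from all other members in genes outside both sums. Panels of 10 genes high and 10 low there were chosen after the values were seen and are described with no test. Reln, which encodes the secreted glycoprotein reelin (chromosome 5, 22089452 to 22549700), was at 9.55 per 10000 UMIs in members of untreated tumor 1, 2.91, 0.147 and 0.0601 in untreated tumors 2 to 4 and 0.318, 0.0305, 0.0691 and 0.00998 in Minnelide tumors 1 to 4. Ablim3, an actin-binding LIM protein, was at 13.7, 4.83, 0.369, 0.571, 0.576, 1.40, 0.0259 and 0.0200. Nxph1, a ligand of neurexins (chromosome 6, 8948431 to 9249616), was at 8.46, 4.08, 0.0369, 0.210, 1.35, 0.0305, 0.0604 and 0. After untreated tumor 1, untreated tumor 2 was the next highest for these genes.

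The rest of the high panel consisted of the sodium-calcium exchanger Slc8a1 (29.8 in members of untreated tumor 1), the sulfotransferases Sult5a1 (5.49) and Sult1a1 (3.44), the nuclear factors Tox3 (4.50), Tox2 (3.004) and Msc (2.44), and the transporter Slc10a6 (3.03). Slc8a1 was between 0.899 and 3.02 in other tumor nuclei of the other 7 tumors, and the remaining 9 genes were at no more than 0.507 there. Slc8a1, the largest term of the sum, was also at 14.7 in macrophage or fibroblast nuclei of untreated tumor 1 and between 11.6 and 21.7 in those of the other tumors. The summed panel was at 83.4 in members, 35.4 in other tumor nuclei and 17.1 in endothelial nuclei of untreated tumor 1, and between 1.34 and 25.9 in members elsewhere. The gap between members and endothelial nuclei was fixed in part by the choice of the genes. A gene entered the high panel only with a level in those members at least 2 times that in endothelial nuclei (0.2 added to both).

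The low panel held Muc5ac, a mucin gene linked to CIC::DUX4, at 0.80 per 10000 UMIs in members of untreated tumor 1, 20.7, 14.3 and 24.4 in untreated tumors 2 to 4 and 22.9, 21.0, 40.8 and 26.9 in Minnelide tumors 1 to 4. Grip1, a synaptic scaffold, was at 0.0444 there and between 4.44 and 15.1 elsewhere, and Esrrg, an orphan nuclear receptor, at 4.75 and between 30.2 and 58.0. Efna5, Igf2bp3, Sdk1, Ano4, Ephb2, Itga8 and Dcc completed it. The sum of the panel was 12.6 in members of untreated tumor 1 against 146 to 270 in members elsewhere. Members were not alone in this. Other tumor nuclei of untreated tumor 1 were at 67.5 against 193.5 to 318.3 elsewhere. Its endothelial nuclei were at 5.12 against 20.55 to 44.6. The panel genes were chosen for low levels in members of untreated tumor 1, so these gaps are in part fixed by the choice.

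**Figure D4:**
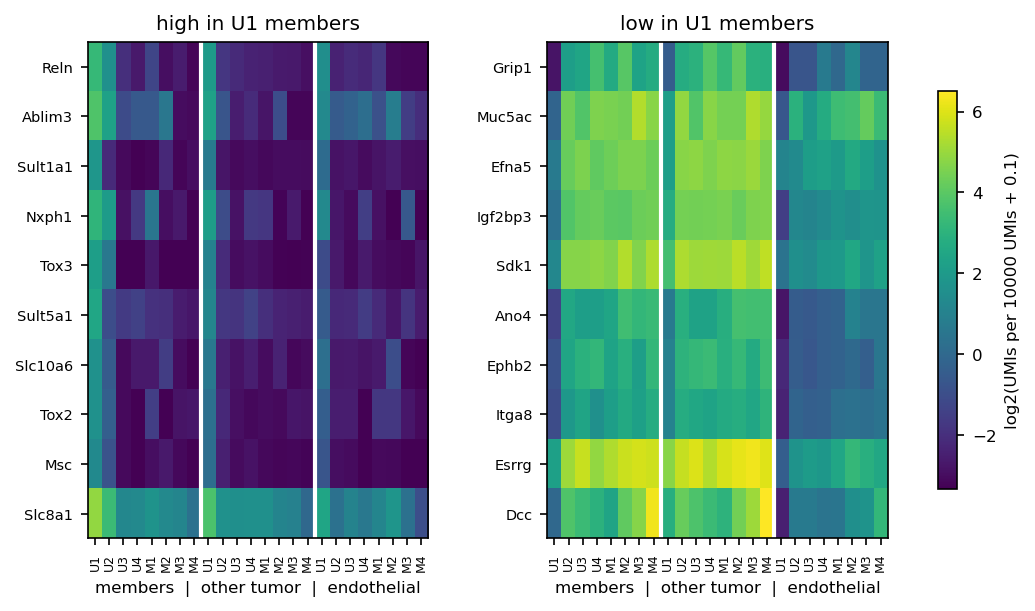
Level of the 20 panel genes (color, log2 of the level per 10000 UMIs plus 0.1) by class of nuclei and tumor, with U1 to U4 for untreated and M1 to M4 for Minnelide tumors. The 10 genes at the left are highest in members of untreated tumor 1 and next highest in those of untreated tumor 2 for Reln, Ablim3 and Nxph1, and the 10 at the right are lowest among members in untreated tumor 1.

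Nuclei with a summed high panel of at least 20 per 10000 UMIs and at least 3 of its genes were counted to see where the pattern occurred. They were 2481 of 2580 members of untreated tumor 1 (96.2%), 50 of 162 in untreated tumor 2 (30.9%), 28 of 515 in Minnelide tumor 1 (5.44%), 1 of 97 in Minnelide tumor 2 and 0 in the members of the remaining 4 tumors. Among other tumor nuclei they were 204 of 353 in untreated tumor 1, 69 of 3401 in untreated tumor 2 (2.03%) and 20 of 9026 in Minnelide tumor 1. The high panel was chosen for being high in members of untreated tumor 1 and low in other tumor nuclei of the other 7 tumors, so the low shares among the latter are in part fixed by that choice.

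Within untreated tumor 2, the panel-high members repeated much of the gene pattern of untreated tumor 1. Erg was at 3.62 per 10000 UMIs in the 50 panel-high members and 1.43 in the rest, Pecam1 at 9.11 and 4.63, Egfl7 at 5.12 and 2.93 and Mecom at 16.6 and 7.76. Ptprb was at 0.85 and 3.08, Flt1 at 2.40 and 6.59 and Sdk1 at 14.6 and 31.1. These values come from 1 tumor and have no replicate check.

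In Minnelide tumor 1 the 28 panel-high members held Mecom at 29.8 per 10000 UMIs against 7.90 in the rest, Erg at 2.84 against 1.58 and Ptprb at 1.70 against 3.17. Pecam1 was at 4.47 and 5.20 there, so not every gene followed the pattern. Nxph1 was at 18.1 against 0.293, while Msc and Sult1a1, of the same panel, had no UMI in these 28 nuclei.

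Members of untreated tumor 1 also stood apart in the summed lists. Further genes linked to CIC::DUX4 were at 40.2 per 10000 UMIs in members of untreated tumor 1 against 74.95 to 139 in members elsewhere, and cell cycle genes at 7.28 against 13.5 to 22.6. Lymphatic genes were at 11.9 against 0.487 to 5.16, of which Reln made up the greater part, and Prox1, the defining factor of lymphatic endothelium, was at 0.750 against 0 to 0.142. Interferon-responsive genes were at 4.78 against 1.80 to 3.84. Members were not alone in this, as other tumor nuclei and endothelial nuclei of untreated tumor 1 were also at the same extreme for each of these lists. In its other tumor nuclei CIC::DUX4-linked genes were at 66.7 against 81.5 to 137 elsewhere, and interferon-responsive genes at 3.62 against 1.06 to 1.89. In its endothelial nuclei the former were at 21.1 against 39.5 to 74.1, and the latter at 9.005 against 3.63 to 8.19. Ets1, an ETS factor of endothelial and lymphoid cells, was at 2.36 against 9.76 to 14.8.

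Transcripts of other cells were counted in members as well. Macrophage genes were at 9.34 per 10000 UMIs in members of untreated tumor 1 against 1.56 to 3.04 in members elsewhere, with the macrophage receptor gene Csf1r at 0.316 against 0.0601 to 0.220. Other tumor nuclei of untreated tumor 1 held macrophage genes at 7.75 and its endothelial nuclei at 7.25. T and NK genes were at 1.87 against 0.164 to 0.689, with Cd3e, a defining T cell gene, at 0.0560. Muscle genes were at 61.7 in members, 120 in other tumor nuclei and 205 in endothelial nuclei of untreated tumor 1, and at 7.06 to 127 in members elsewhere. The part of these RNAs in the E values was not tested.

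**Figure D5:**
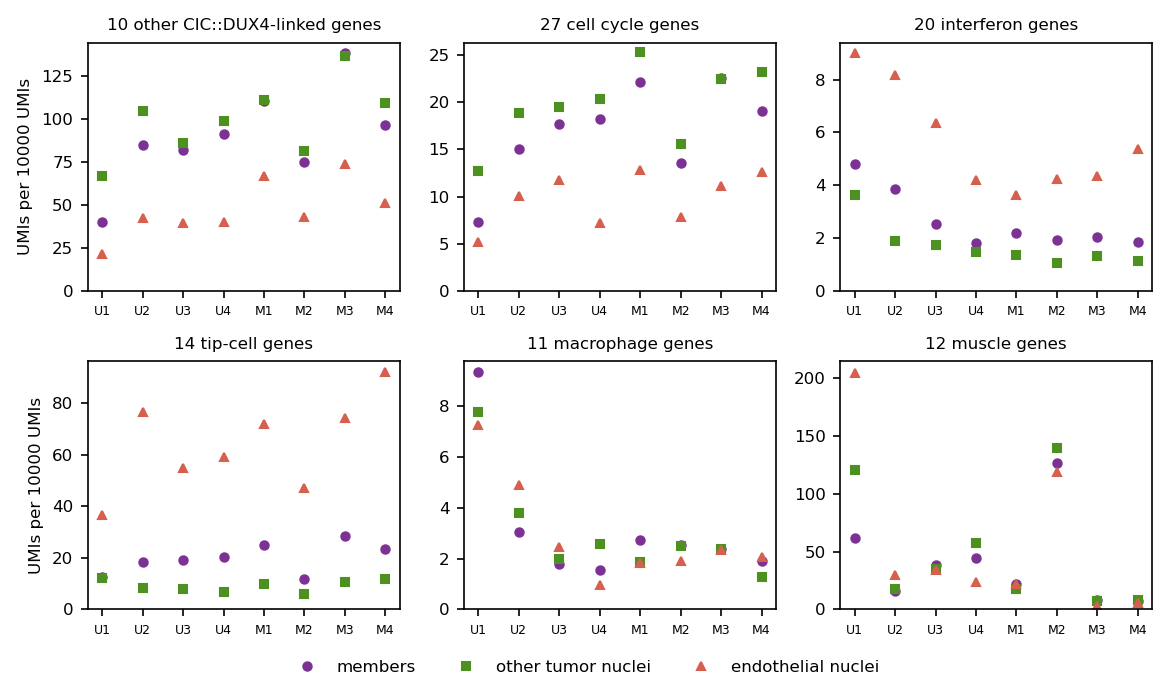
Summed level of 6 gene lists (per 10000 UMIs) in members, other tumor nuclei and endothelial nuclei, 1 point per tumor (U1 to U4 untreated, M1 to M4 Minnelide). Among members, those of untreated tumor 1 are lowest for the CIC::DUX4-linked (40.2) and cell cycle (7.28) lists and highest for the interferon (4.78) and macrophage (9.34) lists.

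Minnelide was then compared with no treatment in the members, with counts summed over the members of each tumor (97 to 2580 nuclei). By edgeR's quasi-likelihood test 0 of 8575 genes had an adjusted p under 0.05 (0%), 559 had an unadjusted p under 0.05, and DESeq2 called 0, with 488 under 0.05 unadjusted. In simulated data of this design, 24% of genes changed by a log2 fold of 1 and 88% of those changed by 2 were recovered over 8590 genes. A change of the smaller size could thus be missed. The simulation used a set dispersion not estimated from these data, changed only well-counted genes and held no tumor like untreated tumor 1. Its percentages are therefore not the power of this comparison.

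The genes nearest to a call were Dusp22 and Gpx8, both with an edgeR adjusted p of 0.571. Dusp22, a dual-specificity phosphatase, was at 0.445, 0.346, 0.332 and 0.360 per 10000 UMIs in members of untreated tumors 1 to 4 and 0.157, 0.152, 0.155 and 0.120 with Minnelide (log2 -1.32 ± 0.21, SE). Gpx8, a peroxidase of the endoplasmic reticulum, was at 0.0760, 0.0630, 0.0553 and 0.0301 and at 0.241, 0.152, 0.233 and 0.220 (log2 1.83 ± 0.30). The groups did not overlap for either gene, but neither passed the test over all genes. Both were picked for the smallest p in their direction, and the share of all genes without overlap is not given here. The lack of overlap therefore adds nothing to the test. Rasgef1b (log2 -1.74 ± 0.31, edgeR adjusted p = 0.727) and Traip (1.99 ± 0.40, edgeR adjusted p = 0.740) were the gene with the next smallest p among those lower and among those higher.

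No list held a called gene in this comparison. The median log2 fold change was 0.30 for the further genes linked to CIC::DUX4, 0.53 for the cell cycle genes, 0.54 for the tip-cell genes, -0.76 for the interferon-responsive genes and -1.10 for the lymphatic genes, against -0.01 over all genes tested. Untreated tumor 1, which had the lowest cell cycle and the highest interferon and lymphatic sums in members, is 1 of the 4 untreated values behind each of these medians. Without it they were 0.07, 0.19, 0.15, -0.52 and -0.42 in the same order, the last over 2 genes in place of 3.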

How the data were processed

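The deposited values were raw UMI counts from Cell Ranger, in 1 matrix per tumor with 19059 features, and were used as they stand. The labels name bcl2fastq 2.20, Cell Ranger 7.0.1 and the mm39 genome, the matrices carry a later Cell Ranger version, and the study's methods state that intronic reads were included. Each matrix was treated as 1 tumor, and tumors were the replicates. Whether the tumors came from separate animals is not in the labels. P-values between classes therefore measure the spread, over these tumors, of the difference within a tumor. Those for Minnelide against no treatment measure the spread between these tumors.

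Members, other tumor nuclei and endothelial nuclei were classed by the 2 sums. Counts were summed per tumor and class (at least 20 nuclei), genes filtered by filterByExpr (minimum count 10), and TMM-normalised sums tested with edgeR 4.0.16 in R 4.3.3, or DESeq2 1.42.0 as an alternative. The 15 genes of the rule were not tested. Doublet scores came from Scrublet in scanpy 1.11.5. Scripts were tested on simulated data, in which 92% of genes with a log2 fold of 1 were recovered over 11771 genes for members against other tumor nuclei. Genome positions are from GENCODE mouse release M39.

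Named genes were the 10 higher and 10 lower with the smallest p that moved alike in every tumor, or 2 each where none was called, besides genes of the rule and of the lists with high levels. The members, lists and rules were chosen with earlier results of these data known, and the panels after values were seen. File names carry words on response that the labels lack, so no comparison by response was made. Some genes that the rule or the lists select are not reported here.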

Additional observations from a re-analysis of the deposited data

Results flagged for a closer look

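In 84 groups of 4 tumors (42 quantities in members, in each group), the tumor farthest from the others was compared with them by Dixon's ratio at its 95% critical value; chance alone flags about 1 in 20 groups, and 8 were flagged here, 4 of them for untreated tumor 1.

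In untreated tumor 1, members were 75.4% of the tumor nuclei against 4.53% to 4.95% in the other untreated tumors, and 27.3% of the passing nuclei against 2.71% to 3.11%. T and NK genes in its members were at 1.87 per 10000 UMIs against 0.451 to 0.614, and blood genes at 0.428 against 0.0945 to 0.120.

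Venous genes in members were at 4.99 per 10000 UMIs in untreated tumor 4 against 6.32 to 6.46 in the other untreated tumors. Among Minnelide tumors, muscle genes in members were at 127 in tumor 2 against 7.06 to 21.7, Ptprb was at 4.75 in tumor 2 against 2.92 to 3.08, and blood genes were at 0.0898 in tumor 4 against 0.173 to 0.183.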

How the results depend on the processing

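The member share of untreated tumors stayed above that of Minnelide tumors in mean under every alternative tried, and no p fell under 0.05. The difference was between -23.7 and -0.06 percentage points when 1 tumor was left out, and the value near 0 was without untreated tumor 1. The difference in genes at equal depth was 17.1 with E of at least 40, in 6 tumors (exact permutation p = 0.0625, positive in 5 of 6), and 21.4 and 19.4 in the 2 counts added after the data were seen, which left out genes of the rule and endothelial genes.

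Members against other tumor nuclei gave 1770 genes. With no replicate block, that is with tumor not in the model, the count was 270, so most calls rest on comparing classes within a tumor. Thinning to 1000 UMIs gave 504, E of at least 40 gave 711 in 6 tumors, and T of at least 120 gave 692 in 7 tumors. Against endothelial nuclei, 3967 became 1554 with thinning and 1808 with E of at least 40. Fewer UMIs or fewer tumors enter each of these fits. Leaving out 1 tumor gave 1214 to 2270 and 3452 to 4307 genes. The comparison of Minnelide with no treatment gave 0 genes under every alternative run. Of 855 alternative values for the 44 named genes, 841 kept their side of the threshold, 14 did not, and 0 turned direction.

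No paired analysis was possible because tumor numbers follow file order, for the comparison of Minnelide with no treatment.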

Other observations

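Nuclei of untreated tumor 1 that were not members also met the high-panel count. Of the 4892 passing nuclei of that tumor in no class, 1746 (35.7%) met it. Their median T was 53.2 per 10000 UMIs, under the threshold of 80, and their median E 29.2, above that of 20. In the rest the medians were 10.9 and 10.97. Of the 489 nuclei whose T reached 80 but was under 2 times E and more than E divided by 2, 434 did (88.8%), and of the 1150 endothelial nuclei 235 did (20.4%). The endothelial class of that tumor therefore held panel-high nuclei too, and levels in members given as a percent of it include them.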
